A study of Mus musculus with 57 samples.

Results

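The regions described here lie around Cdx1 and Cdx2, a pair of mouse homeobox genes. They are the entries of the deposited region lists that overlap a 75 kb window on chromosome 18 (mm9 chr18:61150000-61225000, with Cdx1 at about 61.1785 to 61.1958 Mb) or a 45 kb window on chromosome 5 (mm9 chr5:148095000-148140000, with Cdx2 at about 148.112 to 148.119 Mb). Of 591254 regions in 30 lists, 158 met this rule, 49 in the Cdx1 window and 109 in the Cdx2 window. Regions were listed around Cdx1 in 13 of the 30 lists and around Cdx2 in 21 of them. The study followed chromatin during Wnt stimulation of epiblast stem cells (EpiSCs), cultured cells that resemble the epiblast of the early post-implantation embryo, and in whole embryos or embryo parts. ChIP-seq, which maps DNA bound by a protein or carrying a histone mark, gave 23 of the lists. ATAC-seq, which maps open chromatin by the insertion of a transposase, gave 7. The 4C-seq data, 25 samples, were not used here.

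EpiSC lines had been established from epiblast explants of E6.0 embryos and were kept in Fgf-basic, Activin A and 2 µM IWP2, an inhibitor of Wnt secretion. Stimulation began when IWP2 was withdrawn and either 3 µM CHIR99021 (called Chiron in the labels), a GSK3 inhibitor that switches on canonical Wnt signalling without a ligand, or 125 ng/mL Wnt3a protein was added. In Wnt3KO EpiSCs, which lack the ligand Wnt3, H3K4me3 and H3K27ac were profiled at 0, 6, 12 and 72 h of CHIR99021 in 1 library per time. H3K27me3 was profiled in the same cells after 5 h of Wnt3a and after 6, 12 and 72 h of CHIR99021, in 1 library each, and in 2 libraries at 0 h. Ring1b had 1 library after 5 h of Wnt3a, 1 after 72 h of CHIR99021 and 2 at 0 h. In wild-type EpiSCs, H3K27ac had 2 libraries at 24 h of CHIR99021 and 1 at 0 h, and ATAC-seq had 1 at 48 h and 1 at 0 h. Wild-type embryos were profiled by ATAC-seq in 2 libraries at E6.0, 2 at E7.2 and 1 of the posterior part at E7.5. A pair of wild-type H3K4me3 libraries whose labels contradict each other enters no comparison, and 2 input libraries without antibody had 0 regions in either window. The input lists held only 253 and 424 regions in all, so their 0 says little about background in these windows. The labels give neither the number of clones behind the Wnt3KO cells nor the number of embryos pooled.

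Cdx1 and Cdx2 encode caudal-type homeodomain transcription factors that are switched on in the posterior epiblast and primitive streak, where Wnt signals are active, and that help to activate central and posterior Hox genes. Loss of Cdx function in the mouse shortens the body axis behind the head, and Cdx2 also acts in the trophectoderm of the blastocyst and in the intestine. H3K4me3 is the mark of gene starts, and H3K27ac marks active starts and enhancers. H3K27me3 is laid down by Polycomb repressive complex 2, and Ring1b is the catalytic core of Polycomb repressive complex 1. Both are found over silent developmental genes, often together with H3K4me3.

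Every antibody and ATAC-seq had regions over the 5′ end of Cdx2, so the 250 bases before its annotated start are shown here. They come from RefSeq on build GRCm38.p6 (chr5:147307250-147307499, minus strand), a build whose positions cannot be set beside those of the mm9 lists, and Cdx2 was the member found in the table of promoters. Capitals mark matches to 2 short motifs searched on both strands, an octamer (ATGCAAAT), the type of site bound by Oct4 and other POU factors, and the CCAAT box (CCAAT), read here on the opposite strand as ATTGG.
Cdx2 promoter: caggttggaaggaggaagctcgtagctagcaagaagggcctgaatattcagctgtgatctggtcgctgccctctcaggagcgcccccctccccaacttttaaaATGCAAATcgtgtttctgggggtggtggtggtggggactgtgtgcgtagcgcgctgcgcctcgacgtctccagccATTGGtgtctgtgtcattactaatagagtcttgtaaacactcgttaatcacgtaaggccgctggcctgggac

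The octamer began 147 bases before the start, and 526 of 32841 promoters of the same length (1.60%) held at least 1. The CCAAT match lay 72 bases before the start, a motif found in 33.9% of promoters. Neither CTTTGNT, the core bound by the Wnt effectors of the TCF/LEF family (16.0% of promoters), nor TATAAA (12.4%) occurred in this stretch. G and C made up 55.2% of the bases. No searched motif overlapped another, the motifs were chosen after the sequence was seen, and a match describes letters and not a bound site.

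The values are the positions of regions called in each library on its own, with the fold enrichment over background that the authors' caller gave. Fold enrichment is used here only to place a region within its own list. Lists ranged from 604 regions (Ring1b at 72 h) to 2244 for Ring1b, from 1012 to 6236 for H3K27me3, from 10161 to 29056 for H3K27ac, from 16287 to 17714 for H3K4me3 and from 33881 to 72433 for ATAC-seq. Read depth is unknown, so a region that is not listed did not reach the caller's threshold and may still carry signal. Where a group held 1 library there was no replicate check and no test. The names inside the files place the libraries in 7 folders, taken here only as folders: H3K4me3 and H3K27ac of Wnt3KO cells at 0 and 72 h share 1 folder and those at 6 and 12 h another, whereas the 24 h and 0 h H3K27ac libraries of wild-type cells, and the 48 h and 0 h ATAC-seq libraries, lie in different folders. For H3K27me3 and Ring1b, 0 h replicate 1 shares a folder with the Wnt3a libraries and 0 h replicate 2 with the 72 h libraries, and H3K27me3 at 6 and 12 h lies in a folder without a 0 h library. For 24 h and 48 h against 0 h in wild-type cells, and for 6 or 12 h against 0 h with any antibody in Wnt3KO cells, the folder and the stimulation therefore cannot be told apart. No mm9 annotation was used, so the cell labels were not checked against marker genes. Distances are counted from the upper end of each gene as given above, which is its start on the minus strand and is known to about 1 kb. In the RefSeq gene order of GRCm38.p6, Cdx2 lies between the non-coding Gm35112, with Pdx1 beyond it, and Urad on its upstream side. Cdx1 lies between Slc6a7 and Gm52351, which overlaps its 5′ end there and is followed by Pdgfrb, and whether an element belongs to a neighbouring gene was not tested. Merging overlapping regions of all lists gave 12 elements in each window, of which 6 around Cdx1 and 9 around Cdx2 occurred in at least 2 lists.

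In unstimulated Wnt3KO cells Polycomb regions lay at the start of Cdx2, near its 3′ end and at an element upstream of it. Ring1b covered 5.54 and 6.26 kb of the Cdx2 window in the 2 libraries at 0 h (5.90 ± 0.512 kb, SD, n = 2). Its regions fell on 3 places in both libraries. The first was the start of the gene, at chr5:148116226-148119223 in replicate 1 and chr5:148116766-148119052 in replicate 2. The second, inside the gene near its 3′ end, was at chr5:148112644-148114115 and chr5:148112649-148114429. The third, about 8 kb upstream, was at chr5:148126211-148127277 and chr5:148126256-148127140. The replicates thus placed Ring1b on the same segments, and replicate 2 also held 3 narrow regions of 300 to 618 bp. Of these, the 390 bp region at chr5:148116178-148116567 overlapped the start region of replicate 1, and the others overlapped no region of replicate 1. The start region, 2998 bp wide, ranked 38 of 1605 by width in replicate 1, and its counterpart of 2287 bp ranked 100 of 1783 in replicate 2. By fold enrichment the upstream region stood highest of the 3 in replicate 1, at 7.40, and the region inside the gene stood highest in replicate 2, at 6.64.

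H3K27me3 followed the same segments at 0 h but in more and low-ranking regions. Its 6 regions in replicate 1 covered 3.00 kb of the Cdx2 window and its 10 regions in replicate 2 covered 7.90 kb (5.45 ± 3.46 kb, SD, n = 2). The widest, chr5:148116951-148118906 over the gene start in replicate 2, ranked 306 of 6236 by width, while by fold enrichment of 4.55 it ranked 5409. All 16 regions lay in the lower part of their lists by fold enrichment, the highest of them being the upstream region of replicate 2, at 4.92 and rank 4927. H3K27me3 also marked a segment at chr5:148124553-148125594, about 6 kb upstream, in both replicates. No other mark and no ATAC-seq list had a region there.

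Ring1b was still listed at Cdx2 after 5 h of Wnt3a protein, in shorter regions. The 3 shared segments remained, with 725 bp inside the gene, 1493 bp at the start and 745 bp upstream, and the covered length was 2.96 kb, against 5.90 ± 0.512 kb at 0 h (SD, n = 2), a difference of -2.94 kb. That difference is larger than the SD of the 2 libraries at 0 h, and within the folder that also holds 0 h replicate 1 it was -2.57 kb. With 1 Wnt3a library the spread after Wnt3a is unknown, and no test was made. No Ring1b region of replicate 1 was lost (0 of 3), where lost means without overlap in any library of the other group, and gained the converse, and 3 of 6 were lost for replicate 2. Over all Ring1b regions the shares lost were 18.6% and 28.6%. None of the 3 Wnt3a regions was gained, compared with 34.1% of that list. When each Ring1b list was limited to its 604 strongest regions, the Wnt3a library had none at Cdx2 and the difference became -3.66 kb.

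After 72 h of CHIR99021 neither Polycomb signal was listed at Cdx2. Ring1b covered 0 kb at 72 h, against 5.54 and 6.26 kb at 0 h, and the difference within the folder shared with 0 h replicate 2 was -6.26 kb. All 3 regions of replicate 1 and all 6 of replicate 2 were lost, while 78.5% and 78.3% of all Ring1b regions of those lists were lost too. With lists of equal length the difference was -3.66 kb and 2 regions per 0 h library were lost on average. H3K27me3 covered 0 kb at 5 h of Wnt3a and at 6, 12 and 72 h of CHIR99021, against 3.00 and 7.90 kb at 0 h. All 6 and all 10 of its regions were lost at each of these times. The shares of all H3K27me3 regions lost were 80.2% and 87.1% after Wnt3a, 65.2% and 72.4% at 6 h, 61.4% and 67.9% at 12 h, and 63.6% and 70.2% at 72 h. Those shares are over regions of all strengths, whereas the Cdx2 regions lay in the lower part of their lists by fold enrichment. The loss among equally weak regions was not counted. The 6 and 12 h libraries share no folder with a 0 h library. These lists were shorter than those at 0 h, and with lists of equal length the 72 h difference was -0.422 kb in place of -5.45 kb, with 0.5 regions lost per 0 h library on average. In bulk samples, fewer cells with a mark and less of the mark per cell cannot be told apart.

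**Figure D1:**
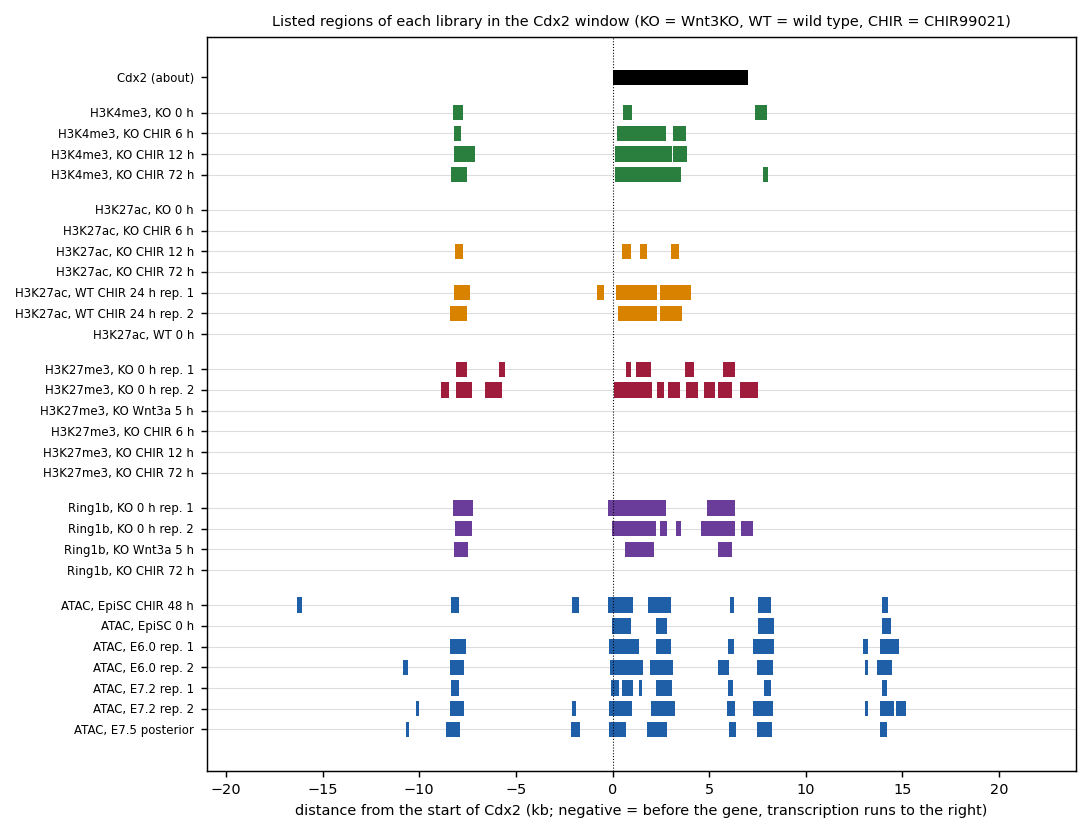
Regions listed in each library over the Cdx2 window, drawn to scale against the distance from the gene start in kb, with 1 row per library, coloured by antibody or assay, and the approximate gene as a black bar. Polycomb rows (H3K27me3 and Ring1b) hold none at 72 h and, at 0 h, regions over the gene and about 8 kb upstream, while the H3K4me3 region at the start is 459 bp wide at 0 h and 2546 to 3423 bp wide at 6, 12 and 72 h.

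H3K4me3 was already present at Cdx2 at 0 h as 3 narrow regions and covered more of the 5′ part of the gene at 6, 12 and 72 h. In the element that spans the start (chr5:148114592-148119223) it covered 459 bp at 0 h, 3172 bp at 6 h, 3633 bp at 12 h and 3423 bp at 72 h. At 0 h this was 1 region, chr5:148118002-148118460, which ranked 14801 of 16287 by width. The widest region was 2546 bp at 6 h and ranked 353 of 17385, at 12 h it was 2903 bp and ranked 163 of 17714, and at 72 h it was chr5:148115475-148118897, 3423 bp wide, and ranked 221 of 16746. The start of Cdx2 therefore held one of the narrower H3K4me3 regions of the 0 h list and one of the widest of each later list. By fold enrichment the same regions ranked 15033 in the 0 h list, 7759 in the 6 h list, 5856 in the 12 h list and 11340 in the 72 h list.

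The 72 h region was 7.46 times as wide as the 0 h region it overlapped. Among all 16287 regions at 0 h, 2.08% overlapped a 72 h region at least 3 times as wide, the median ratio was 1.03, and Cdx2 ranked 44. A high ratio is easier to reach from a narrow region such as this one, and regions of like width were not compared separately. The median width of the whole lists was 1237 bp at 0 h, 930 bp at 6 h, 936 bp at 12 h and 1230 bp at 72 h, with little difference between 0 and 72 h. In total H3K4me3 covered 4.58 kb of the Cdx2 window at 72 h, against 1.59 kb at 0 h. These values come from 1 library each in the same folder. No region was gained at 72 h (0 of 3, with 6.69% in the whole list) and none was lost (0 of 3, with 4.83%), so the difference lay in width and not in the number of regions. At 6 h against 0 h, 1 of 3 regions was gained, a 626 bp region inside the gene (2.97% of the list), and 1 of 3 was lost, the one beyond the 3′ end (12.3%), where the folder differs too. At 12 h the window was covered over 4.75 kb, against 3.56 kb at 6 h in the same folder, with 0 of 3 regions gained (7.23% of the list) and 0 of 3 lost (5.12%). With lists of equal length that difference was 2.2 kb in place of 1.19 kb, and 2 regions in place of 0 were gained.

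The upstream element at chr5:148126101-148127868 carried H3K4me3 at every time, over 480 bp at 0 h, 383 bp at 6 h, 1113 bp at 12 h and 850 bp at 72 h. A further place, chr5:148110632-148112398 beyond the 3′ end of the gene, had H3K4me3 over 647 bp at 0 h, none at 6 and 12 h, and 305 bp at 72 h. The 2 libraries with it lie in one folder and the 2 without it in another. Whether the folder bears on this was not tested.

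H3K27ac appeared at Cdx2 on the same start and upstream elements. In Wnt3KO cells the Cdx2 window had no H3K27ac region at 0 h, none at 6 h, 4 regions covering 1.64 kb at 12 h, and none at 72 h. Of the 4 regions, 3 lay over the start element, with summits 0.751, 1.7 and 3.20 kb into the gene, and 1 lay 7.94 kb upstream. They were small, 376 to 438 bp, and ranked between 4621 and 7882 of 11636 by fold enrichment. At 12 h against 6 h, which share a folder, 4 of 4 regions were gained, compared with 33.8% of the list, and at 12 h against 0 h, in different folders, 4 of 4, compared with 25.2%. The 12 h listing rests on 1 library.

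In wild-type cells H3K27ac formed broad regions at 24 h. It covered 4.98 and 4.05 kb of the Cdx2 window in the 2 libraries at 24 h (4.51 ± 0.658 kb, SD, n = 2), against 0 kb at 0 h, where the list held no region in the window. Over the start element it formed 2 adjoining regions in each library, chr5:148114932-148116567 and chr5:148116702-148118812 in replicate 1, chr5:148115406-148116554 and chr5:148116690-148118723 in replicate 2. The part nearer the start ranked 1876 of 29056 and 1867 of 27422 by width. The upstream element carried 853 and 865 bp. Gained regions were 4 of 4 and 3 of 3, compared with 64.7% and 62.8% of the 24 h lists, which held 29056 and 27422 regions, against 14453 at 0 h. With lists of equal length the difference was 2.07 kb, with 1 region gained per 24 h library on average. Wnt3KO and wild-type cells were sampled at different times, and no comparison of H3K27ac between the genotypes was made.

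**Figure D2:**
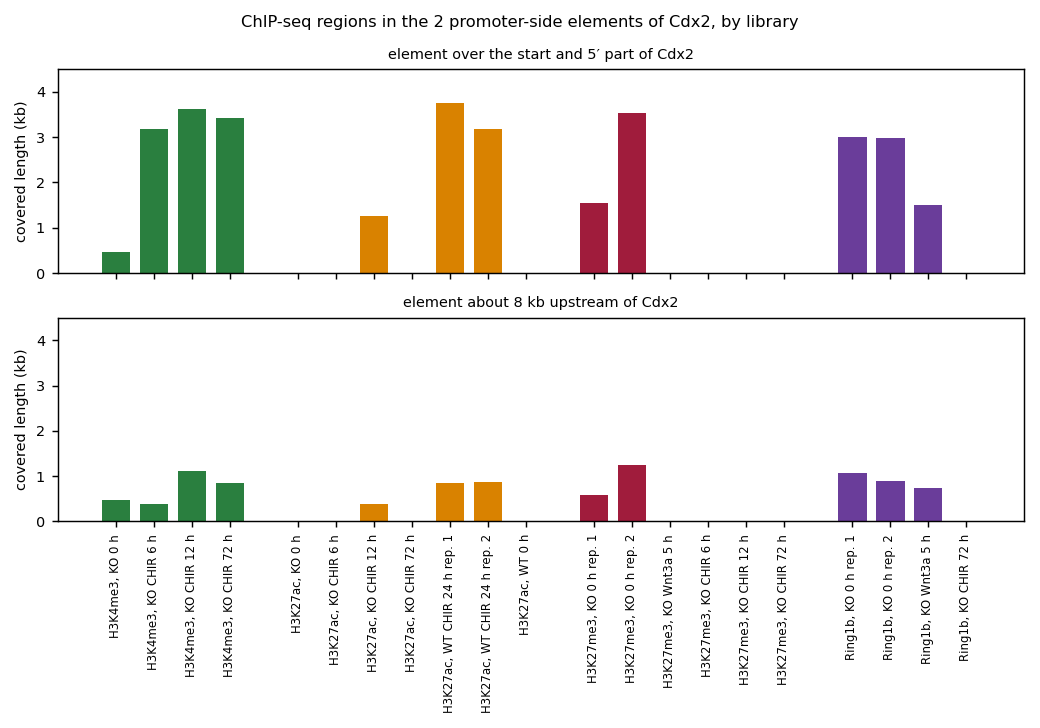
Covered length in kb of the 2 Cdx2 elements, the start (upper panel) and the element about 8 kb upstream (lower panel), in each ChIP-seq library, with 1 bar per library, coloured by antibody. At the start H3K4me3 covers 459 bp at 0 h and 3172 to 3633 bp at the later times, Ring1b covers 1493 bp after Wnt3a and 2998 and 2977 bp at 0 h, and H3K27ac is listed at 12 h in Wnt3KO cells and at 24 h in wild-type cells.

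Open chromatin was listed at the Cdx2 start before stimulation. In EpiSCs after 48 h of CHIR99021 8 ATAC-seq regions covered 4.67 kb of the Cdx2 window, and in unstimulated EpiSCs 4 regions covered 2.91 kb. Both libraries listed 2 sites over the start element, a site within the gene (chr5:148115779-148117211) and one at the start itself (chr5:148117423-148119211), as well as 2 sites beyond the 3′ end. The site at the start stood at 22.9-fold enrichment and rank 8019 of 38032 in the 48 h list. In the 0 h list it stood at 5.18-fold and rank 36744 of 41309, the lowest of the 4 Cdx2 regions there. The site beyond the 3′ end at about 14 kb (chr5:148103820-148105297) and the one at about 8 kb from the start (chr5:148110632-148111744) were listed in all 7 ATAC-seq libraries. Within the 48 h list the start was the strongest site of the Cdx2 window, and within the 0 h list these 3′ sites were, at 13.8- and 14.0-fold.

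Gained at 48 h were 4 of 8 Cdx2 regions (27.5% of the list), and lost were 0 of 4 (33.8% of the 0 h list). The gained regions were the upstream element (414 bp, summit 8.17 kb upstream), a site about 1.9 kb upstream at chr5:148120748-148121121, a 191 bp region inside the gene, and a 247 bp region 16.2 kb upstream. The upstream element thus carried H3K4me3, H3K27me3 and Ring1b in Wnt3KO cells at 0 h, but no ATAC-seq region in wild-type EpiSCs at 0 h. With lists of equal length the difference in covered length was 2.57 kb in place of 1.75 kb. Limited to the gene and 10 kb on each side it was 1.51 kb.

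The embryo lists shared most Cdx2 sites with the EpiSC lists, but not all. The 247 bp region 16.2 kb upstream was listed in no embryo library. In no EpiSC library, but in embryos, were a site beyond the 3′ end (chr5:148105762-148106049, in both E6.0 libraries and in E7.2 replicate 2), one about 10.1 kb upstream (chr5:148128994-148129194, in E7.2 replicate 2) and one about 10.7 kb upstream (chr5:148129519-148129833, in E6.0 replicate 2 and at E7.5). Covered lengths were 5.83 and 6.17 kb at E6.0, 3.35 and 6.45 kb at E7.2, and 4.82 kb in the posterior part at E7.5. The upstream element was listed in all 5 embryo libraries, over 834 and 725 bp at E6.0, 391 and 738 bp at E7.2 and 722 bp at E7.5. Listed in both E6.0 libraries and not in unstimulated EpiSCs were the upstream element, the site inside the gene near its 3′ end (chr5:148112616-148113518) and the site at chr5:148105762-148106049. The E6.0 lists were longer, with 57569 and 61933 regions, against 41309 in unstimulated EpiSCs, and a site that is not listed may still be open. The site about 1.9 kb upstream (chr5:148120658-148121161) was listed in neither E6.0 library, in 1 of 2 at E7.2 and at E7.5, besides EpiSCs at 48 h. At E7.5 it was 504 bp wide, at 9.98-fold and rank 10716 of 42338, whereas at E7.2 it was 202 bp wide at 4.35-fold and rank 51626 of 72433. Of all regions gained at 48 h in EpiSCs, 26.8% were listed at E7.5 and in neither E6.0 library, as this one was, and 11.0% were listed at E7.5 and in both E6.0 libraries, as the upstream element was.

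No stage difference in covered length was resolved at Cdx2. E7.2 libraries averaged 4.90 ± 2.19 kb and E6.0 libraries 6.00 ± 0.238 kb (SD, n = 2 each), a difference of -1.10 kb (exact two-sided permutation test, p = 1), where 2 against 2 libraries cannot give less than p = 0.333. Within the folder that holds both replicates 1 the difference was -2.49 kb and within that of both replicates 2 it was 0.28 kb. The E7.2 replicate 1 list was the shortest of the ATAC-seq lists, with 33881 regions, and without it the difference was 0.449 kb. Gained were 0 of 8 and 2 of 10 regions (5.10% and 28.4% of the E7.2 lists), and lost were 0 of 7 and 1 of 8 (22.5% and 26.5% of the E6.0 lists). The E7.5 posterior library covered 4.82 kb, which differed by -0.078 kb from the E7.2 mean, within the spread of the E7.2 libraries. It was 1.47 kb higher than E7.2 replicate 1, which shares its folder. Gained was 1 of its 8 regions (24.6% of its list), and lost were 1 of 8 and 3 of 10 of the E7.2 regions (29.9% and 56.8%).

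Around Cdx1 fewer marks were listed before stimulation. None of the 6 H3K27me3 and none of the 4 Ring1b lists held a region in the Cdx1 window, at any time, and no Wnt3KO library held an H3K4me3 region at the Cdx1 start. The H3K4me3 regions of these cells lay in an element about 9.6 kb upstream (chr18:61204583-61206274), where H3K4me3 covered 376 bp at 0 h, none at 6 and 12 h, and 562 bp at 72 h, the same split by folder as beyond the 3′ end of Cdx2. The 72 h region ranked 14154 of 16746 by width and the 0 h region 15464 of 16287, so both were among the narrow ones of their lists. At 72 h against 0 h none was gained (0 of 1, with 6.69% in the whole list) and none was lost (0 of 1, with 4.83%). At 6 h against 0 h, in different folders, the single region was lost (1 of 1, with 12.3%). The upstream element was the most widely listed one in the Cdx1 window, in 13 lists, among them all 7 of ATAC-seq. Whether it belongs to Cdx1 or to a neighbouring gene was not tested. No H3K27ac region was listed in the Cdx1 window in Wnt3KO cells at 0, 6, 12 or 72 h.

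In wild-type cells H3K27ac was listed around Cdx1 after 24 h of CHIR99021. It covered 3.61 and 2.62 kb in the 2 libraries at 24 h (3.11 ± 0.70 kb, SD, n = 2), against 0 kb at 0 h. The main region lay just inside the gene start, at chr18:61193999-61195700 in replicate 1 and chr18:61194027-61195756 in replicate 2. It was 1702 bp wide, at 5.34-fold and rank 14584 of 29056, in replicate 1, and 1730 bp wide, at 8.15-fold and rank 8678 of 27422, in replicate 2. The element about 9.6 kb upstream carried 1175 bp in replicate 1 and 541 bp in replicate 2. The replicates shared these elements, and the remaining 3 small regions of 346 to 368 bp were each listed in 1 library. All 5 and all 3 regions were gained, beside the 64.7% and 62.8% of those lists given above. With lists of equal length the difference was 0.865 kb, with 0.5 regions gained per library on average, since the start region then remained in replicate 2 and not in replicate 1.

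**Figure D3:**
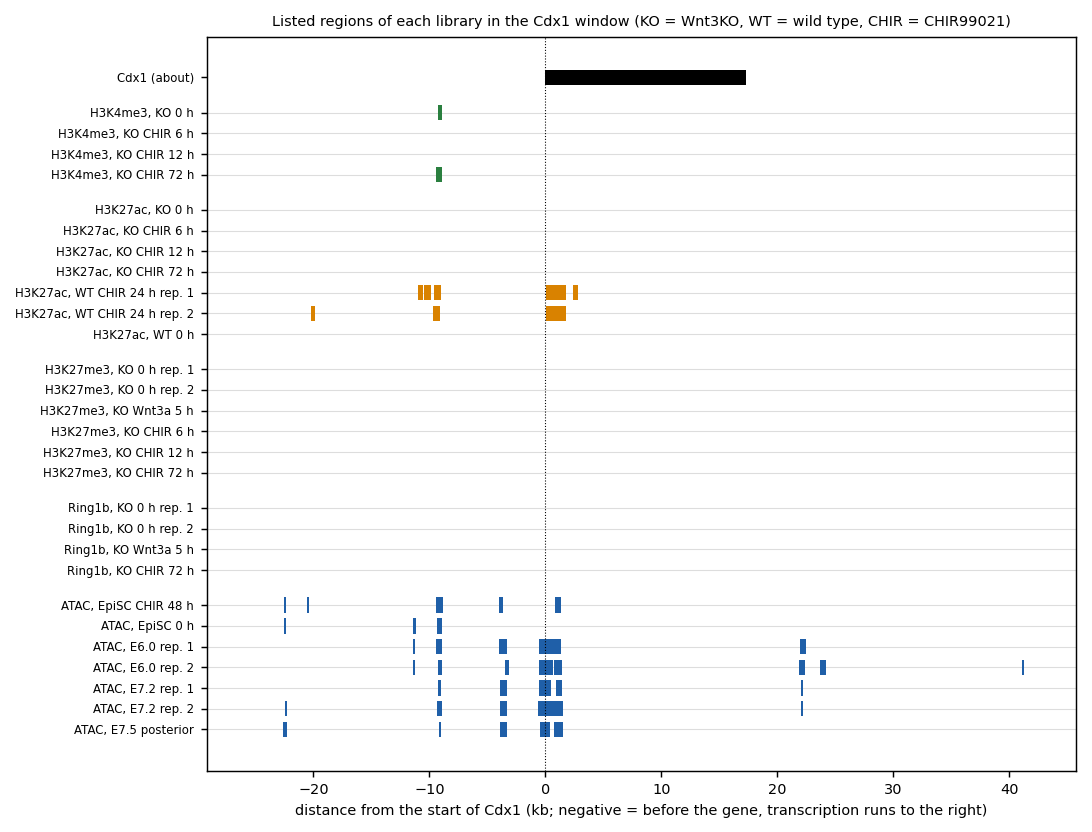
Regions listed in each library over the Cdx1 window, drawn to scale against the distance from the gene start in kb, with 1 row per library, coloured by antibody or assay, and the approximate gene as a black bar. H3K27me3 and Ring1b rows are empty, H3K27ac is listed in the 2 wild-type libraries at 24 h, and the ATAC-seq site at the start is listed in all 5 embryo libraries and in EpiSCs at 48 h.

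The Cdx1 start was listed as open in every embryo library and in stimulated EpiSCs, and not in unstimulated EpiSCs. Its ATAC-seq site (chr18:61194307-61196463) was covered over 1924 and 1824 bp at E6.0, 1495 and 2157 bp at E7.2 and 1665 bp at E7.5, and over 568 bp in EpiSCs at 48 h. In the E7.2 replicate 2 list it was 1 region that ranked 531 of 72433 by width. Summits fell at 2 places, at or just before the gene start and about 1.1 kb inside it. At E6.0 the stronger or only summit was the one at the start, at 0.265 kb upstream in replicate 1 and 0.163 kb upstream in replicate 2. At E7.2 and E7.5 the stronger or only one was inside the gene, at 1.1 and 1.04 kb in the E7.2 replicates and 1.1 kb at E7.5, and at 48 h in EpiSCs the only one was at 1.1 kb, where H3K27ac also lay at 24 h. In the E7.5 list the inner region stood at 9.92-fold, rank 10775 of 42338, and the region at the start at 5.41-fold, rank 28223. In E6.0 replicate 2 the inner region stood at 3.62-fold, rank 57806 of 61933, and the region at the start at 8.62-fold, rank 18857.

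A second site about 3.6 kb upstream of Cdx1 (chr18:61198947-61199810) had the same listing, in all 5 embryo libraries and in EpiSCs at 48 h but not at 0 h. Between stimulated and unstimulated EpiSCs, 3 of 5 Cdx1 regions were gained (27.5% of the list), namely the start, the site 3.6 kb upstream and a 218 bp region 20.4 kb upstream, and 1 of 3 was lost (33.8% of the list), a 213 bp region 11.2 kb upstream. Covered length was 1.98 kb at 48 h and 0.837 kb at 0 h. The lost site (chr18:61206966-61207237) was also listed in both E6.0 libraries and in neither E7.2 library nor at E7.5. A site about 22.5 kb upstream (chr18:61218090-61218421) was listed in both EpiSC libraries, in 1 of 2 at E7.2 and at E7.5, and in neither E6.0 library. Past the 3′ end, a site about 22.2 kb from the start (chr18:61173294-61173940) was listed at E6.0, over 583 and 562 bp, and at E7.2, over 207 and 132 bp, and neither at E7.5 nor in EpiSCs. An H3K4me3 region of 555 bp overlapped this site in the wild-type library titled wt 0h, whose labels contradict each other. Whether the site belongs to Cdx1 or to a neighbouring gene was not tested.

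The covered length of the Cdx1 window was 3.78 and 4.07 kb at E6.0, 2.49 and 3.49 kb at E7.2, and 2.85 kb at E7.5. Both E7.2 values lay below both E6.0 values, with means of 2.99 ± 0.708 kb at E7.2 and 3.93 ± 0.204 kb at E6.0 (SD, n = 2 each), a difference of -0.933 kb (exact two-sided permutation test, p = 0.333, the smallest that 2 against 2 libraries can give). The difference was -1.29 kb within one folder and -0.576 kb within the other, and with lists of equal length it turned to 0.284 kb. Gained were 0 of 5 and 1 of 5 regions, and lost were 1 of 5 and 3 of 8, beside the shares given for this comparison above. The E7.5 library differed by -0.141 kb from the E7.2 mean, within the spread of the E7.2 libraries. Within its folder it differed by 0.36 kb, with lists of equal length by 0.012 kb, and 0 of its 5 regions were gained (24.6% of its list) and 1 of 5 regions of each E7.2 library was lost (29.9% and 56.8%).

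**Figure D4:**
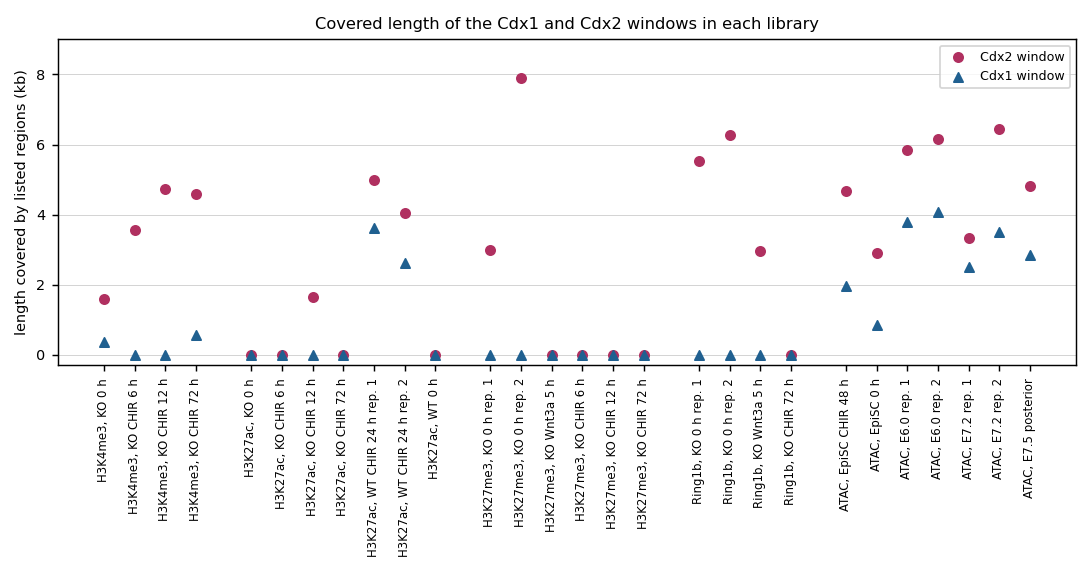
Length in kb of the Cdx2 window (circles) and the Cdx1 window (triangles) covered by listed regions, with 1 point per library and the windows at 45 and 75 kb. Ring1b covers none of the Cdx2 window at 72 h, against 5.54 and 6.26 kb at 0 h, and no Polycomb library covers any of the Cdx1 window.

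How common the Cdx2 combination was could be counted over the H3K4me3 regions of the 0 h list. Of 16287 regions, 456 overlapped Ring1b and H3K27me3 in both 0 h replicates, as the region at the Cdx2 start did. Among these 456 regions, 330 (72.4%) had no Ring1b region at 72 h, 214 (46.9%) had no H3K27me3 region at 72 h, and 192 (42.1%) had neither. H3K27ac listed in both wild-type libraries at 24 h and not at 0 h was found at 126 of them (27.6%). The Cdx2 start combined all of these, as did 58 regions in all (12.7%), and 16 of the 58 also had H3K27ac at 12 h in Wnt3KO cells. The median ratio of H3K4me3 width at 72 h to that at 0 h was 0.978 over the 456 regions, and 34 of them reached a ratio of at least 3. Likeness was measured as the number of the other 27 lists in which a region was present or absent as at the Cdx2 start, which was on in 18 and off in 9. No other region had the identical pattern, and 52 regions, the Cdx2 one included, differed in at most 2 lists. How many other regions have a pattern of their own was not counted, so the lack of an identical match is not read as particular to Cdx2. These regions were not named, since no mm9 annotation was used. The Cdx1 start held no H3K4me3 region at 0 h, so this measure could not be taken there.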

How the data were processed

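Per the submitters' processing notes, ChIP-seq reads of 21 samples were aligned with Bowtie 1.1.0 and those of 7 ATAC-seq samples trimmed with cutadapt 1.8.1 and aligned with Bowtie2 2.1.0, with SAMtools 0.1.19, and peaks called with MACS2 2.1.0, on mm9. For 4 samples, both 24 h H3K27ac libraries among them, no tool is given in the sources used here. The deposited lists hold, per region, a position, a score, a fold enrichment (a ratio over the caller's background), and −log10 p- and q-values, all as the authors' caller made them, per library. Scores were not used further. From these, covered length (merged bases within a window), region counts, widths and ranks were computed with Python 3.11.15, NumPy 2.4.6 and Matplotlib 3.10.9. Regions sharing at least 1 bp counted as overlapping, and a region without overlap in any library of the other group counted as gained or lost. The computation was checked on simulated lists. E7.2 and E6.0 were compared by an exact two-sided permutation test. Other comparisons had too few libraries, and differences were set against the SD of the replicated group. Nothing says that replicates came from separate cultures or embryos, so their spread may be technical. Elements named are those in at least 2 lists, and others are given as counts or as members of a comparison. The windows, lists and tests were chosen with earlier results of these data known. The 12 h against 6 h comparisons were added after seeing the data. Alternatives were a −log10 q of at least 5, lists of equal length (the strongest regions by −log10 p, up to the shortest list of that antibody or assay), the gene with 10 kb on each side, a shared stretch of 50% or more of the smaller region, leaving out each replicate and a replicate block.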

Additional observations from a re-analysis of the deposited data

Results flagged for a closer look

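A pair of wild-type H3K4me3 libraries stood outside all comparisons because the title and the stimulation label of each contradict each other. Each of these libraries held regions in both windows. The library titled wt 0h covered 1.377 kb of the Cdx2 window and 1.103 kb of the Cdx1 window, and the library titled wt Chiron72h covered 3.494 kb of the Cdx2 window and 1.487 kb of the Cdx1 window. At the Cdx2 start the first held 1 region of 376 bp, rank 16520 of 17147 by width, and the second 1 region of 2831 bp, rank 1060 of 16798. At the upstream Cdx2 element they held 300 and 663 bp, and at the element about 9.6 kb upstream of Cdx1 548 and 1487 bp. The library titled wt 0h also held 701 bp beyond the 3′ end of Cdx2 and 555 bp beyond that of Cdx1. Neither library held a region at the Cdx1 start.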

How the results depend on the processing

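Of 96 covered lengths recomputed, 82 moved by no more than the tolerance, 8 moved by more and 6 changed sign. The tolerance was 1 SD of a replicated group in the comparison or, with none, of E6.0 embryos for ATAC-seq and of the 24 h libraries for H3K27ac, and 1.5 times for H3K4me3. Of 132 counts of gained or lost regions, 120 stayed within 1.5 times and 12 did not. Comparisons without a region in either group, such as H3K27me3 and Ring1b at Cdx1, could not move under any setting. They count among the 82 and the 120, which therefore overstate how stable the other results were. With lists of equal length, the Cdx2 differences were 2.07 kb for wild-type H3K27ac (0.865 kb at Cdx1), -0.422 kb for H3K27me3 at 72 h, -3.66 kb for Ring1b at 72 h and after Wnt3a alike, 2.2 kb for H3K4me3 at 12 h against 6 h and 2.57 kb for ATAC-seq at 48 h. The last was 1.51 kb in the gene with 10 kb on each side. E7.2 against E6.0 became 0.284 kb at Cdx1, and E7.5 against E7.2 became 0.012 kb at Cdx1 and 0.50 kb at Cdx2. Under the same setting the mean counts per library of gained regions were 0.5 (Cdx1) and 1 (Cdx2) for wild-type H3K27ac, 2 for Cdx2 H3K4me3 at 12 h, and 1 (Cdx1) and 0 (Cdx2) at E7.2. Lost regions were 0.5 for H3K27me3 and 2 for Ring1b at 72 h, 0.5 at E7.2 for Cdx1 and 0.5 at E7.5 for Cdx2. A −log10 q of at least 5 gave 0.5 lost (Cdx1) and 0 gained (Cdx2) at E7.5, and the 50% overlap gave 1 lost at E7.2 (Cdx2). Shorter lists hold fewer weak regions by construction. Otherwise the cause was not tested. Leaving out each library in turn, E7.2 against E6.0 ranged from -1.43 to -0.432 kb at Cdx1 and from -2.65 to 0.449 kb at Cdx2, and E7.5 against E7.2 from -0.641 to 0.36 kb and from -1.63 to 1.47 kb. Wild-type H3K27ac ranged from 2.62 to 3.61 kb at Cdx1 and from 4.05 to 4.98 kb at Cdx2, and at Cdx2 H3K27me3 at 72 h ranged from -7.90 to -3.00 kb, Ring1b at 72 h from -6.26 to -5.54 kb and Ring1b after Wnt3a from -3.30 to -2.57 kb. A replicate block by number left E7.2 against E6.0 at -0.933 kb (Cdx1) and -1.10 kb (Cdx2) and changed no call. Same-numbered libraries shared a folder, but their deviations correlated at 0.021 over 21139 bins of 100 kb, so the numbers are not taken to pair them. Unknown depth and single libraries limit every absence reported here.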
